A study of Bos taurus with 3 samples.

Results

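Endothelial cells of the newborn calf rumen that carried transcripts of IGFBP3 were compared with endothelial cells of the same calves in which none was counted. IGFBP3 (ENSBTAG00000003994) encodes the most abundant carrier protein of insulin-like growth factors in the circulation. A barcode was called endothelial when it held a UMI (unique molecular identifier, 1 counted transcript) of at least 3 of the 7 genes PECAM1, CLDN5, CDH5, KDR, VWF, EGFL7 and RAMP2, no UMI of the leukocyte gene PTPRC, and under 10 UMIs of the keratins KRT5, KRT14 and KRT15 together per 10000 UMIs. Of 31228 deposited barcodes, 26020 passed the quality limits and 1019 of these were endothelial. The IGFBP3-positive cells were chosen by their measured IGFBP3 count, and the endothelial class by the counts of the 7 genes. A total of 299 endothelial cells held at least 2 IGFBP3 UMIs and are called IGFBP3-positive below. The 595 endothelial cells without an IGFBP3 UMI are called IGFBP3-negative, and 125 cells with exactly 1 UMI entered neither group.

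Endothelial cells line all vessels and differ along the vascular tree. Arterial cells carry Notch signalling genes and the connexins of large vessels, capillary cells carry genes of exchange and lipid uptake, venous cells carry genes that recruit leukocytes, and lymphatic cells carry hyaluronan and chemokine genes. IGFBP3 binds insulin-like growth factors outside the cell and so limits or extends their action, and it is made by many cell types, among them endothelial cells.

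The samples were rumen tissues of 3 newborn Holstein dairy calves, taken from the ventral sac 1 day after birth. The outer muscle layers were stripped before the tissue was dissociated with trypsin, collagenases, dispase and hyaluronidase, and dead cells were removed only where viability was low. Each calf gave 1 droplet library, so the replicate is the calf (n = 3). There was no treated or control group, and the contrast lay between cells of the same library.

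The 3 libraries held 7529 to 12043 barcodes and 82263092 to 106145091 UMIs. Pairs of libraries shared 21 to 37 deposited barcodes, and 1 shared barcode was endothelial in both calves. Calf 1 gave only 6 IGFBP3-positive cells and 41 IGFBP3-negative cells, against 103 and 231 in calf 2 and 190 and 323 in calf 3. The summed IGFBP3-positive cells of the calves held 31671, 608657 and 1119043 UMIs, so that a single UMI in calf 1 was worth 31.6 CPM (counts scaled to the total of the summed cells). The median UMI count per cell was 4857 in IGFBP3-positive and 4079 in IGFBP3-negative cells. The counts that lead the results are therefore also given without each calf.

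Endothelial genes beyond the 7 of the rule were also present in the IGFBP3-positive cells. Of the list of 22 further endothelial genes, 18 were tested and none differed from the IGFBP3-negative cells at the threshold. With 3 calves this does not show equal levels. CLEC14A, a surface glycoprotein of endothelium, was at 916, 739 and 673 CPM in IGFBP3-positive cells of calves 1, 2 and 3, and at 394, 595 and 464 CPM in IGFBP3-negative cells. TEK, the angiopoietin receptor, was at 63.1, 197 and 189 CPM against 110, 185 and 177 CPM. CLEC14A and TEK were present in every calf in both groups, although the CLEC14A ranges did not overlap and those of TEK did. ENG, of the same list, was lower without overlap, at 568, 562 and 474 CPM against 812, 570 and 769 CPM (-0.56 ± 0.19, adjusted p = 0.128). EMCN was lower in each calf, at 758, 460 and 514 CPM against 852, 469 and 709 CPM (-0.42 ± 0.19, adjusted p = 0.419). Among the genes of the rule, whose differences are a description and no result, the tight junction gene CLDN5 was at 2337, 1945 and 1593 CPM in IGFBP3-positive cells and at 733, 1304 and 378 CPM in IGFBP3-negative cells. PECAM1, the junctional adhesion molecule, was at 1389, 738 and 651 CPM against 753, 697 and 649 CPM.

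IGFBP3 itself chose the cells, so its values describe the gate only. The share of endothelial cells with at least 2 IGFBP3 UMIs was 11.3% in calf 1 (95% exact Clopper-Pearson interval 4.27% to 23.0%, 6 of 53 cells), 27.2% in calf 2 (22.8% to 32.0%, 103 of 379 cells) and 32.4% in calf 3 (28.6% to 36.3%, 190 of 587 cells), with a mean of 23.6% ± 10.96 (SD, n = 3). The interval of calf 1 met that of calf 2 only at its edge and lay below that of calf 3. Intervals cover counting error only. Within the IGFBP3-positive cells the median was 5 IGFBP3 UMIs and the highest value was 183. A total of 106 of the 299 cells (35.5%) held 10 or more. At the edge of the gate, the 64 cells with exactly 2 UMIs had a median of 4.87 IGFBP3 UMIs per 10000 and the 125 cells with 1 UMI had a median of 2.24.

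IGFBP3 was also present in epithelial and fibroblast cells of these libraries. Epithelial cells were those with at least 10 UMIs of the 3 keratins per 10000, no PTPRC UMI and UMIs of under 2 of the 7 endothelial genes. In epithelial cells the share with at least 2 UMIs was 42.4%, 52.6% and 18.8% in calves 1, 2 and 3, and their median depth was 7758 UMIs against 4253 in endothelial cells. After every cell was thinned at random to 2000 UMIs, with shallower cells left out, the shares were 10.2%, 19.4% and 20.6% in endothelial cells and 12.8%, 27.6% and 4.25% in epithelial cells. The order of the calves therefore differed between the 2 classes, and the means of 16.7% ± 5.67 and 14.9% ± 11.8 (SD, n = 3) lay within each other's spread. Immune cells, which served as the class that should lack the gene, had a mean share of 0.242% ± 0.420 before thinning (SD, n = 3) at a median of 6139 UMIs. Mural cells had 2.41% ± 4.17 and fibroblasts had 12.6% ± 11.2, the latter at a median of 2135.5 UMIs. Calves 1, 2 and 3 gave 4, 18 and 275 immune cells, 1, 45 and 83 mural cells and 7, 116 and 191 fibroblasts. The means of these 3 classes therefore rest in part on calves with very few cells.

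**Figure D1:**
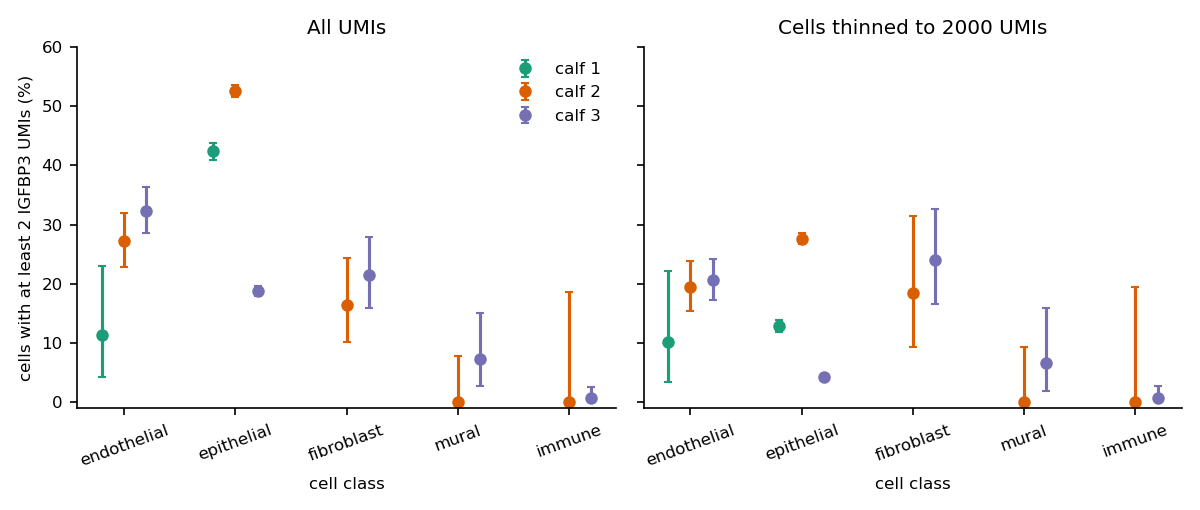
Share of cells with at least 2 IGFBP3 UMIs (%, vertical axis) by cell class and calf, with all UMIs at left and after thinning to 2000 UMIs at right. Points are calves, bars are 95% exact binomial intervals and classes with under 10 cells in a calf are left out. Endothelial shares ran from 11.3% to 32.4% before thinning, and immune cells stayed near 0.

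The question of the main comparison was which other genes differed between IGFBP3-positive and IGFBP3-negative endothelial cells of the same calf. UMIs were summed per calf and group. The sums were tested in edgeR (quasi-likelihood, calf as block, Benjamini-Hochberg adjustment over all genes tested), and differences below are log2 differences of IGFBP3-positive minus IGFBP3-negative cells with their standard error. Of 6805 genes tested, 145 (2.13%) passed an adjusted p of 0.05, of which 78 (1.15%) were higher and 67 (0.985%) were lower in IGFBP3-positive cells. The 78 higher genes include CLDN5, which the gate used and whose call is no result. The count was 282 without calf 1, 55 without calf 2 and 24 without calf 3. The levels of the 2 groups did not overlap over the calves for 9.16% of all genes tested. The median difference over all genes tested was -0.02.

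Of the gene lists, the arterial one held the most higher genes. Of 28 arterial genes, 23 were tested, 10 were higher and none was lower, with a median difference of 0.80 against -0.02 over all genes and a background of 1.15% called higher. The 10 were GJA5, GJA4, BMX, DLL4, HEY1, UNC5B, CXCR4, FBLN5, MGP and ELN. Without calf 1, 2 or 3, the number called higher was 11, 7 and 3. The lists and the rule of the cells were chosen with earlier results of these data known, so the count is a description of these libraries.

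GJA5 (ENSBTAG00000006720) encodes an arterial gap junction connexin. It stood at 126, 62.4 and 75.1 CPM in IGFBP3-positive cells of calves 1, 2 and 3, and at 0, 1.01 and 2.47 CPM in IGFBP3-negative cells. Every IGFBP3-positive value was above every IGFBP3-negative value, and the difference was 5.13 ± 0.45 (adjusted p = 4.04e-27). In all, 126 GJA5 UMIs were counted in the 299 positive cells and 5 in the 595 negative cells. GJA4, which encodes a second endothelial connexin, was at 158, 161 and 87.6 CPM against 69.8, 69.4 and 41.3 CPM, with no overlap and a difference of 1.02 ± 0.22 (adjusted p = 0.000293). GJA1, a connexin made by many cell types, was higher by 0.77 ± 0.20 (adjusted p = 0.00866). GJA4 did not pass without calf 2 (adjusted p = 0.215), without calf 3 (0.173) or with DESeq2 (0.278). The same held for GJA1, with adjusted p-values of 0.9999, 0.144 and 0.9998, and its difference without calf 2 was 0.38. Of the 18 endothelial junction genes tested, which include genes of the gate such as CLDN5, these 3 connexin genes were the ones outside the gate that were higher, and none was lower. Over all genes tested, 1.15% were called higher.

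BMX (ENSBTAG00000000377), a cytoplasmic tyrosine kinase known from arterial endothelium and endocardium, was at 158, 75.6 and 189 CPM in IGFBP3-positive cells. In IGFBP3-negative cells it was at 9.97, 11.1 and 24.7 CPM. The groups did not overlap, and the difference was 2.83 ± 0.26 (adjusted p = 8.75e-25). UNC5B, a netrin receptor of arterial and tip cells, was at 189, 125 and 173 CPM against 54.8, 57.3 and 43.8 CPM, again without overlap (1.50 ± 0.21, adjusted p = 7.41e-10). UNC5B did not pass without calf 3. CXCR4, the receptor of CXCL12, was at 31.6, 187 and 40.2 CPM against 9.97, 86.4 and 16.7 CPM, higher in each calf with overlapping ranges, and its difference was 1.06 ± 0.24 (adjusted p = 0.00101). It did not pass without calf 2 (adjusted p = 0.212) or calf 3 (adjusted p = 0.295).

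Of 12 tested genes of the Notch pathway, 3 were higher and none was lower, namely the ligands DLL4 and JAG2 and the target gene HEY1, beside 1.15% of all genes called higher. The number was 3, 2 and 1 without calf 1, 2 and 3, and 2 with DESeq2. DLL4 was at 189, 209 and 171 CPM in IGFBP3-positive cells and at 89.7, 81.4 and 54.3 CPM in IGFBP3-negative cells. The lowest positive value lay above the highest negative value, and the difference was 1.35 ± 0.20 (adjusted p = 4.52e-09). DLL4 did not pass without calf 3 (adjusted p = 0.060). HEY1, a transcriptional repressor induced by Notch, was at 189, 50.9 and 178 CPM against 9.97, 11.1 and 52.4 CPM. It was higher in each calf, but calf 2 of the positive cells lay just under calf 3 of the negative cells (1.85 ± 0.24, adjusted p = 1.16e-11). JAG2 was at 663, 143 and 188 CPM against 150, 77.4 and 95.01 CPM (0.96 ± 0.19, adjusted p = 7.86e-05), and it did not pass without calf 2 (adjusted p = 0.070) or calf 3 (adjusted p = 0.055). JAG1, a further ligand, was at 347, 186 and 188 CPM against 120, 132 and 173 CPM and did not pass the test (0.26 ± 0.19, adjusted p = 0.842). The target HES1 had a difference of -0.28 and did not pass either.

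The arterial genes SOX17 and EFNB2 did not pass the test. SOX17, a transcription factor of arterial endothelium, was at 158, 230 and 279 CPM against 269, 167 and 181 CPM. EFNB2, the arterial ephrin ligand, was at 94.7, 21.4 and 46.5 CPM against 9.97, 15.1 and 24.7 CPM (0.80 ± 0.32, adjusted p = 0.272). SOX17 overlapped between the groups, and EFNB2 was higher in each calf with overlapping ranges.

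**Figure D2:**
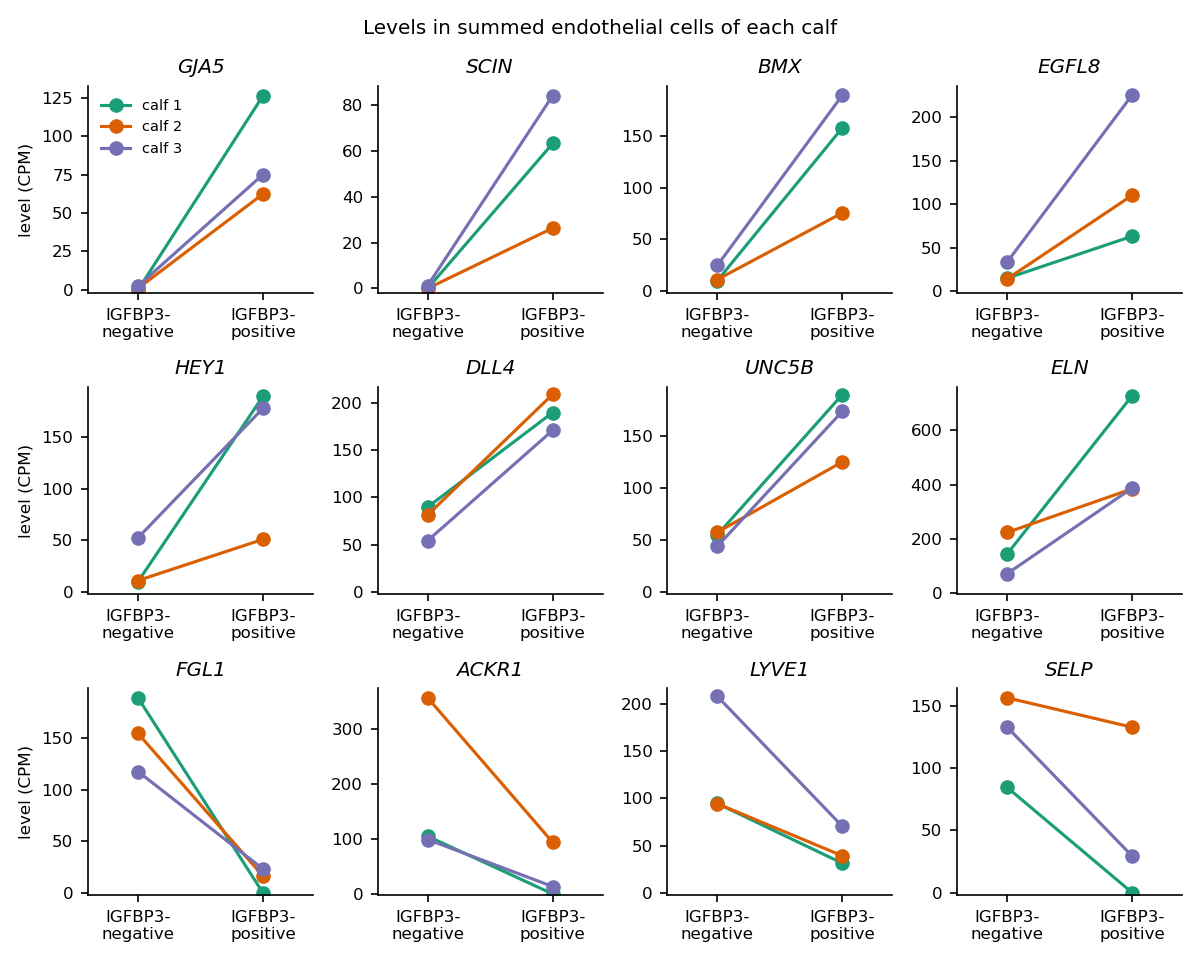
Level (CPM of the summed endothelial cells of a calf, vertical axis from 0) of 12 genes in IGFBP3-negative and IGFBP3-positive cells, with a line joining the cells of a calf. GJA5, SCIN, BMX, EGFL8, HEY1, DLL4, UNC5B and ELN were higher and FGL1, ACKR1, LYVE1 and SELP were lower in the positive cells of every calf.

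Of 24 tested genes of basement membrane and matrix, 5 were higher and none was lower, namely ELN, FBLN5, MGP, FBN1 and FN1. The number was 5, 2 and 0 without calf 1, 2 and 3, and 1 with DESeq2. Over all genes tested, 1.15% were called higher in the main fit. ELN, which encodes elastin, was at 726, 384 and 387 CPM in IGFBP3-positive cells and at 145, 224 and 72.2 CPM in IGFBP3-negative cells. The groups did not overlap, and the difference was 1.53 ± 0.19 (adjusted p = 1.89e-12). ELN did not pass without calf 3 (adjusted p = 0.052). FBLN5, which organises elastic fibres, was at 94.7, 21.4 and 32.2 CPM against 9.97, 9.05 and 4.32 CPM (2.13 ± 0.45, adjusted p = 0.000257). FBN1, the fibrillin of microfibrils, was at 316, 235 and 387 CPM against 120, 149 and 147 CPM (0.96 ± 0.19, adjusted p = 0.000105). Both FBLN5 and FBN1 stood without overlap. FN1, fibronectin, rose by 1.07 ± 0.21 (adjusted p = 6.61e-05).

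MGP, an inhibitor of calcification in vessel walls, had no UMI in calf 1 in either group and was at 39.4 and 74.2 CPM in positive cells of calves 2 and 3, against 22.1 and 7.40 CPM (2.07 ± 0.32, adjusted p = 3.8e-08). Single cells carried much of this gene, with 50 of 83 UMIs of calf 3 in 1 positive cell and 21 of 24 UMIs of calf 2 in another. ELN was found in more cells, with UMIs in 51 of 103 positive cells of calf 2 and in 81 of 190 of calf 3. In negative cells it was found in 107 of 231 and 55 of 323. Single positive cells held 17 of 23 ELN UMIs in calf 1, 91 of 234 in calf 2 and 43 of 433 in calf 3. The ELN levels of positive cells in calves 1 and 2 therefore rest in part on 1 cell each. After thinning, ELN was found in 33.3%, 28.7% and 25.4% of positive cells of calves 1, 2 and 3. The thinned shares of negative cells were 16.2%, 28.4% and 6.71%, so calf 2 hardly differed.

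The summed level of 18 fibroblast markers was 2.12 to 4.75 UMIs per 10000 in IGFBP3-positive cells and 1.69 to 2.25 in IGFBP3-negative cells, and COL6A3 and DLK1 were at 0 in the positive cells. DCN, a proteoglycan known from fibroblasts, was the 1 of 4 tested markers that was higher (1.54 ± 0.39, adjusted p = 0.00611). It was at 63.1, 9.86 and 48.3 CPM against 4.98, 14.1 and 8.64 CPM. After thinning, DCN was found in 39.3% ± 6.35 of epithelial cells (SD, n = 3). The thinned shares were 7.87% ± 7.76 in positive and 1.51% ± 1.43 in negative endothelial cells. DCN UMIs were therefore not confined to fibroblasts in these libraries, and the source of the DCN difference was not tested. COL3A1, which the filter on low counts left untested, had 121 UMIs in positive and 15 in negative cells, of which 55 fell in 1 cell of calf 3. Without endothelial cells with more than 10 stromal or mural UMIs per 10000, which took 4 positive cells of calf 3, 142 genes were called, 139 of them among the 145, and all 15 of the highest named genes passed. In that fit DCN did not pass (0.45 ± 0.49, adjusted p = 0.969), and MGP fell under the filter on low counts and was not tested. Without the filter on low counts, 5 of 17 fibroblast markers were called higher.

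SCIN (ENSBTAG00000009786), which encodes the actin-severing protein scinderin, had 112 UMIs in the IGFBP3-positive and 2 in the IGFBP3-negative cells. It was at 63.1, 26.3 and 84.0 CPM in the positive cells of calves 1, 2 and 3, and at 0, 0 and 1.23 CPM in the negative cells. No calf overlapped, and the ratio of the pooled levels was 89.7 (95% counting interval 24.2 to 749, adjusted p of the fit = 3.13e-24). Its UMIs came from 2, 10 and 42 positive cells, with at most 7 in a cell.

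EGFL8 (ENSBTAG00000025410), a secreted protein with EGF-like domains, was at 63.1, 110 and 225 CPM in IGFBP3-positive and at 15.0, 14.1 and 33.3 CPM in IGFBP3-negative cells (2.68 ± 0.24, adjusted p = 2.85e-25). PPP1R1B, an inhibitor of protein phosphatase best known from neurons, was at 94.7, 44.4 and 84.0 CPM against 9.97, 8.04 and 9.25 CPM (2.83 ± 0.33, adjusted p = 1.14e-14). Neither gene overlapped between the groups. PPP1R14A, an inhibitor of myosin phosphatase, was at 221, 64.1 and 315 CPM against 69.8, 51.3 and 80.2 CPM, and calf 2 of the positive cells lay within the negative range (1.34 ± 0.21, adjusted p = 3.8e-08). PPP1R14A did not pass without calf 3 (0.42, adjusted p = 0.9999) or with DESeq2 (adjusted p = 0.458).

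The remaining genes with the largest increases were THY1, EDC3, MYZAP, C18H19orf33 and PYGL. THY1, a surface glycoprotein shared by fibroblasts, neurons and some endothelium, was at 253, 13.1 and 81.3 CPM against 15.0, 10.1 and 22.8 CPM (1.68 ± 0.31, adjusted p = 8.54e-06). MYZAP, a protein of cell junctions, was at 63.1, 88.7 and 88.5 CPM against 24.9, 26.1 and 31.5 CPM (1.47 ± 0.25, adjusted p = 9.19e-07). MYZAP did not overlap, while THY1 of calf 2 lay within the negative range. EDC3, a factor of mRNA decapping, rose by 1.47 ± 0.30, PYGL, a glycogen phosphorylase, by 1.30 ± 0.28 and C18H19orf33 by 1.42 ± 0.20. None of THY1, EDC3, MYZAP, C18H19orf33 and PYGL passed with DESeq2. Without calf 3, C18H19orf33 (adjusted p = 0.588) and MYZAP (adjusted p = 0.055) did not pass.

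CYP1A1, the xenobiotic-metabolising enzyme induced through the aryl hydrocarbon receptor, passed the test on calf 3 (3.85 ± 0.29, adjusted p = 1.28e-36). It was at 0, 9.86 and 440 CPM in IGFBP3-positive cells and at 15.0, 0 and 26.5 CPM in IGFBP3-negative cells. In calf 3, 83 of 190 positive cells and 17 of 323 negative cells held a UMI, while calf 1 held 3 UMIs and calf 2 held 6 UMIs in all. It was not higher in all calves, so it stands outside the rule for named genes and was chosen after its values were seen.

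Of the IGF system, 11 of 24 genes other than IGFBP3 were tested, 1 was higher and 1 was lower. Over all genes tested, 1.15% were called higher and 0.985% lower. IGF2, the growth factor that IGFBP3 binds, was at 4389, 2021 and 3032 CPM in IGFBP3-positive cells and at 1022, 1372 and 1392 CPM in IGFBP3-negative cells. The groups did not overlap, and the difference was 0.98 ± 0.19 (adjusted p = 6.71e-05). IGFBP6, a binding protein that prefers IGF2, was at 631, 342 and 200 CPM against 573, 478 and 420 CPM, with calf 1 in the opposite direction (-0.80 ± 0.19, adjusted p = 0.00335). IGFBP6 did not pass without calf 2 (adjusted p = 0.471), without calf 3 (0.9999) or with DESeq2 (0.529). With DESeq2, IGF2 did not pass either (adjusted p = 0.05003). IGFBP4 and IGFBP7 did not pass, at differences of 0.13 ± 0.19 and -0.34 ± 0.19. STC1, an inhibitor of IGFBP proteases, was at 347, 600 and 672 CPM against 145, 561 and 473 CPM and did not pass (0.26 ± 0.20, adjusted p = 0.864).

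CXCL12, the chemokine that binds CXCR4, was the 1 higher gene of the 13 tested for leukocyte adhesion and chemokines (1.196 ± 0.20, adjusted p = 1.21e-06). It was at 979, 117 and 97.4 CPM in IGFBP3-positive cells and at 159, 85.4 and 30.2 CPM in IGFBP3-negative cells. It was higher in each calf, but 28 of the 31 UMIs of calf 1 came from 1 cell and calves 2 and 3 lay within the negative range. NOS3, the endothelial nitric oxide synthase, was the 1 higher gene of 13 tested shear stress genes, at 221, 173 and 85.8 CPM against 54.8, 101 and 46.3 CPM (0.78 ± 0.21, adjusted p = 0.012). It did not pass without calf 2 (adjusted p = 0.259) or calf 3 (adjusted p = 0.595). Over all genes tested, 1.15% were called higher.

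S100B, a calcium-binding protein known from glia, was at 379, 222 and 521 CPM in IGFBP3-positive and at 110, 104 and 190 CPM in IGFBP3-negative cells. It did not overlap between the groups (1.22 ± 0.20, adjusted p = 1.66e-07). The summed level of 9 glial and neural markers was 2.37 to 5.37 UMIs per 10000 in positive and 1.15 to 2.05 in negative cells, and S100B itself made up most of it, with 12, 135 and 583 UMIs in positive cells of calves 1, 2 and 3, while SOX10, a transcription factor of glia, was at 0 in the positive cells. UCHL1 was the other marker tested and had a difference of 0.05 ± 0.46.

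**Figure D3:**
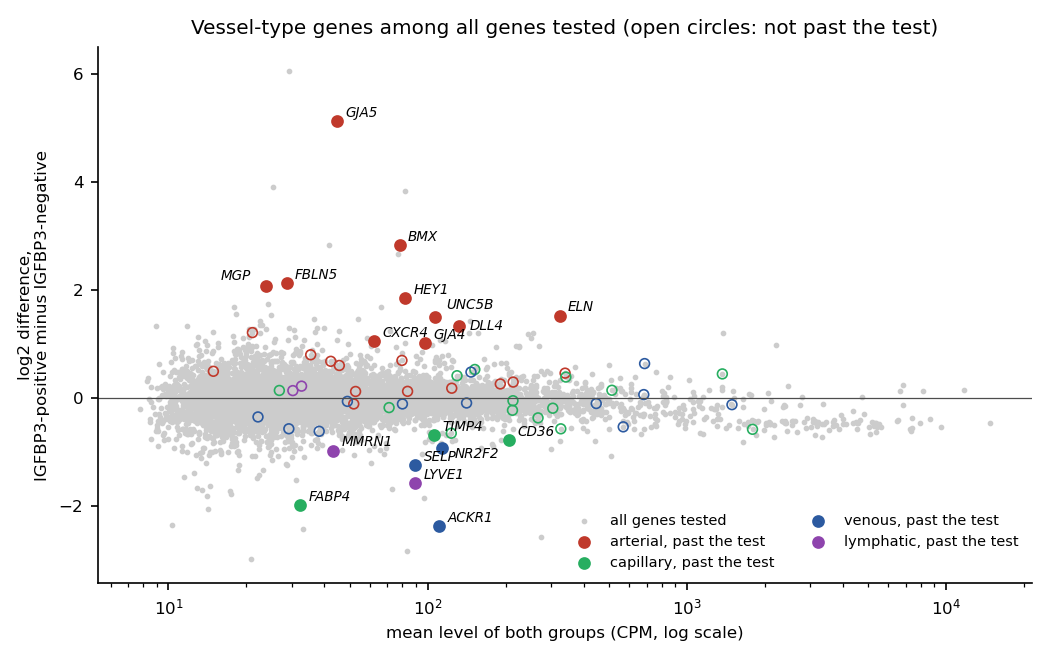
Log2 difference of IGFBP3-positive minus IGFBP3-negative endothelial cells (vertical axis) against the mean level of both groups (CPM, log axis) for the 6805 genes tested, with arterial, capillary, venous and lymphatic genes in colour. The 10 arterial genes past the test lie above 0, and the 3 capillary, 3 venous and 2 lymphatic genes past the test lie below 0.

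Of 15 venous genes tested, 3 were lower (ACKR1, SELP and NR2F2) with a list median of -0.12. Of 17 capillary genes tested, 3 were lower (CD36, FABP4 and TIMP4) with a median of -0.18. Of 4 lymphatic genes tested, 2 were lower (LYVE1 and MMRN1) with a median of -0.41. The background was 0.985% of all genes tested called lower. Without calf 1, 2 and 3 in turn, the number called lower was 3, 2 and 1 for venous, 4, 0 and 1 for capillary and 2, 1 and 1 for lymphatic genes. In addition, 2 venous genes were called higher without calf 1 and 1 lymphatic gene without calf 2. DESeq2 called 1 venous, 0 capillary and 1 lymphatic gene lower, while its count over all genes was 7 lower.

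ACKR1 (ENSBTAG00000003220), the chemokine scavenger receptor of venules, was at 0, 93.6 and 13.4 CPM in IGFBP3-positive cells and at 105, 356 and 98.7 CPM in IGFBP3-negative cells. The groups did not overlap, and the difference was -2.37 ± 0.23 (adjusted p = 1.26e-21). SELP, which encodes P-selectin, was at 0, 133 and 29.5 CPM against 84.7, 157 and 133 CPM, and calf 2 differed little (-1.24 ± 0.21, adjusted p = 1.66e-06). NR2F2, the transcription factor that sets venous identity, was at 31.6, 95.3 and 98.3 CPM against 130, 155 and 175 CPM without overlap (-0.92 ± 0.20, adjusted p = 0.000564). It did not pass without calf 2 (adjusted p = 0.225) or calf 3 (adjusted p = 0.457). VWF, a gene of the rule that is strong in veins, was at 94.7, 667 and 565 CPM against 733, 750 and 604 CPM.

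The capillary genes were less even over the calves. CD36, a fatty acid receptor, was at 410, 102 and 111 CPM in IGFBP3-positive cells and at 234, 201 and 181 CPM in IGFBP3-negative cells, so that calf 1 went the opposite way (-0.78 ± 0.20, adjusted p = 0.00583). FABP4, a fatty acid carrier, was at 0, 34.5 and 1.79 CPM against 19.9, 135 and 2.47 CPM (-1.98 ± 0.36, adjusted p = 1.06e-05). In calf 2, 109 of its 134 UMIs in negative cells came from 1 cell. PLVAP, a protein of fenestrae and caveolae, was at 758, 2673 and 1324 CPM against 1699, 2234 and 2079 CPM and did not pass the test (-0.58 ± 0.20, adjusted p = 0.133).

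LYVE1, the hyaluronan receptor of lymphatic endothelium, was at 31.6, 39.4 and 70.6 CPM in IGFBP3-positive cells and at 94.7, 94.5 and 208 CPM in IGFBP3-negative cells. No value overlapped, and the difference was -1.57 ± 0.22 (adjusted p = 7.51e-10). MMRN1, an extracellular protein of lymphatic and platelet origin, was at 0, 14.8 and 34.0 CPM against 120, 51.3 and 39.5 CPM (-0.97 ± 0.29, adjusted p = 0.0373). CCL21, the lymphatic chemokine, had no UMI in the positive cells and 282 in the negative cells, which came from 6 cells. The lymphatic regulator PROX1 had 3 UMIs in positive and 5 in negative cells. The summed level of 16 lymphatic markers was 0.821 to 2.66 UMIs per 10000 in positive and 2.39 to 5.01 in negative cells. Cells with UMIs of at least 2 lymphatic markers were 24 of the 299 positive and 34 of the 595 negative cells, and in calf 2 they were 9 of 103 and 8 of 231. Without cells that held UMIs of at least 2 lymphatic markers, 161 genes were called, all 15 of the highest named genes passed, and 14 of the 15 lowest passed with MMRN1 as the exception.

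Among the remaining lower genes, FGL1, a secreted fibrinogen-like protein, had the largest decrease of the 15 lowest named genes. FGL1 was at 0, 16.4 and 23.2 CPM in IGFBP3-positive and at 189, 155 and 118 CPM in IGFBP3-negative cells, without overlap (-2.83 ± 0.26, adjusted p = 5.61e-24). EBD, a beta-defensin, was at 0, 16.4 and 12.5 CPM against 9.97, 113 and 46.3 CPM (-2.42 ± 0.32, adjusted p = 1.16e-11). Defensin genes form a family of near copies, so the split of reads among them is uncertain. MUSTN1, a small nuclear protein of the musculoskeletal system, was at 0, 78.9 and 42.9 CPM against 64.8, 250 and 147 CPM (-1.84 ± 0.22, adjusted p = 1.14e-14).

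CCL8, a monocyte chemokine, was at 0, 21.4 and 67.0 CPM in IGFBP3-positive cells and at 79.7, 110 and 159 CPM in IGFBP3-negative cells, without overlap (-1.69 ± 0.23, adjusted p = 9.89e-11). CCL2, the main monocyte attractant, was at 0, 57.5 and 189 CPM against 344, 138 and 235 CPM, with overlapping ranges (-0.92, adjusted p = 0.000589). IL6 was at 0, 9.86 and 23.2 CPM against 54.8, 52.3 and 29.6 CPM (-1.22, adjusted p = 0.0124). Neither CCL2 nor IL6 passed without calf 2 (adjusted p = 0.371 and 0.9999) or with DESeq2 (0.9998 and 0.794). CCL2, IL6 and SELP were the 3 lower genes among the 13 tested for leukocyte adhesion and chemokines, beside CXCL12 as the 1 higher gene. Over all genes tested, 0.985% were called lower and 1.15% higher. Of the other named genes, RGS16, MYLK, TCIM, PGM5, ABI3 and ST3GAL4 were lower, from RGS16 at -1.197 to ST3GAL4 at -1.03. TCIM was the most abundant of these, at 284, 228 and 483 CPM against 847, 468 and 750 CPM, with calf 3 of the positive cells just above calf 2 of the negative cells.

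None of the tested genes passed among 12 of VEGF and angiopoietin signalling, 16 of TGF-beta and BMP signalling, 13 of the MHC, 19 of hypoxia and glycolysis, 20 of the interferon response and 24 immediate-early and heat shock genes. FLT1, a VEGF receptor, was at 189, 187 and 262 CPM in IGFBP3-positive cells against 224, 152 and 267 CPM. For the lists that follow, the shares over all genes tested were 1.15% called higher and 0.985% called lower. Of 14 cell cycle genes tested, CENPF and TOP2A were lower and none was higher. Of 20 endothelial transcription factors tested, MEOX1 and NR2F2 were lower. Of 16 tip cell genes tested, the 3 that were higher were CXCR4, UNC5B and DLL4, which are also arterial genes. Of 15 coagulation genes, TFPI2, an inhibitor of the tissue factor pathway, and MMRN1 were lower, and TFPI2 (-0.82, adjusted p = 0.00415) was also the 1 lower shear stress gene. Of 15 fatty acid and lipid genes, CD36 and FABP4 were lower.

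Of 12 mitochondrially encoded genes tested, 7 were lower and none was higher, with a list median of -0.66. The number was 10 without calf 1, 0 without calf 2 or calf 3, and 0 with DESeq2. Over all genes tested, 0.985% were called lower in the main fit. COX3 was at 5999, 6089 and 1415 CPM in IGFBP3-positive cells and at 6808, 7875 and 2350 CPM in IGFBP3-negative cells (-0.66 ± 0.20, adjusted p = 0.0373). The summed level of the 13 genes was 265, 307 and 87.9 UMIs per 10000 in positive and 322, 374 and 138 in negative cells, lower in each calf, and calf 3 stood below the other calves in both groups. The part of RNA quality in the other differences was not tested.

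The summed level of 24 epithelial markers was 7.38 to 10.7 UMIs per 10000 in IGFBP3-positive and 7.25 to 12.2 in IGFBP3-negative cells, and none of the 9 tested differed. The epithelial sum holds the 3 keratins of the gate, whose level the rule capped in both groups. The 21 immune markers summed to 1.26 to 3.66 against 1.99 to 3.68, and the 19 mural markers to 0.739 to 1.26 against 0.844 to 1.15. Of the 2 tested mural markers, MYLK, the myosin light chain kinase of smooth muscle, was lower. The mural genes RGS5, TAGLN and PDGFRB were at 0 in the positive cells. No red blood cell marker was tested. Of the 4 tested immune markers, CCL5 differed, and it was lower (-1.81 ± 0.40, adjusted p = 0.000688).

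GJA5, BMX and DLL4 were found in a larger share of the cells with 10 or more IGFBP3 UMIs than of the cells with none. GJA5 was found in 3 of 595 cells without an IGFBP3 UMI (0.504%), in 2.40% of cells with 1 UMI, in 5.21% with 2 to 3, in 9.28% with 4 to 9 and in 45.3% of the 106 cells with 10 or more. The respective shares were 5.88%, 13.6%, 26.04%, 28.9% and 57.5% for BMX, and 23.7%, 41.6%, 46.9%, 37.1% and 65.1% for DLL4. The cells with 10 or more IGFBP3 UMIs were deeper, with a median of 6417 UMIs against 4079 in cells with none. Per 10000 UMIs, which takes the depth into account, GJA5 was at 0.0178, 0.0427, 0.162, 0.163 and 1.53 over the same 5 classes. DLL4 was at 0.664, 0.968, 1.62, 1.28 and 2.43 and GJA4 at 0.533, 0.641, 1.21, 0.995 and 1.21, so neither rose at each step. Between cells with 2 to 3 and with 10 or more IGFBP3 UMIs, HEY1 fell from 0.880 to 0.260 in calf 2. In calf 3 it rose from 0.967 to 2.60.

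ACKR1 was found in 20.3% of cells without an IGFBP3 UMI, in 8% of cells with 1 UMI, and in 6.25%, 5.15% and 5.66% of the 3 classes of positive cells. FGL1 went from 21.3% to 5.66% and NR2F2 from 42.7% to 24.5% between the cells without IGFBP3 and those with 10 or more UMIs. The calves were not alike. In calf 2, SELP was found in 26.4% of cells without IGFBP3 and in 25.8% of those with 10 or more UMIs, and LYVE1 in 19.5% and 19.4%, while in calf 3 the shares were 27.9% and 2.78% for SELP and 39.3% and 9.72% for LYVE1. The level of IGF2 was 13.6, 16.6, 21.7, 20.8 and 35.7 UMIs per 10000 over the 5 classes. These values pool the cells of the 3 calves and carry no test.

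**Figure D4:**
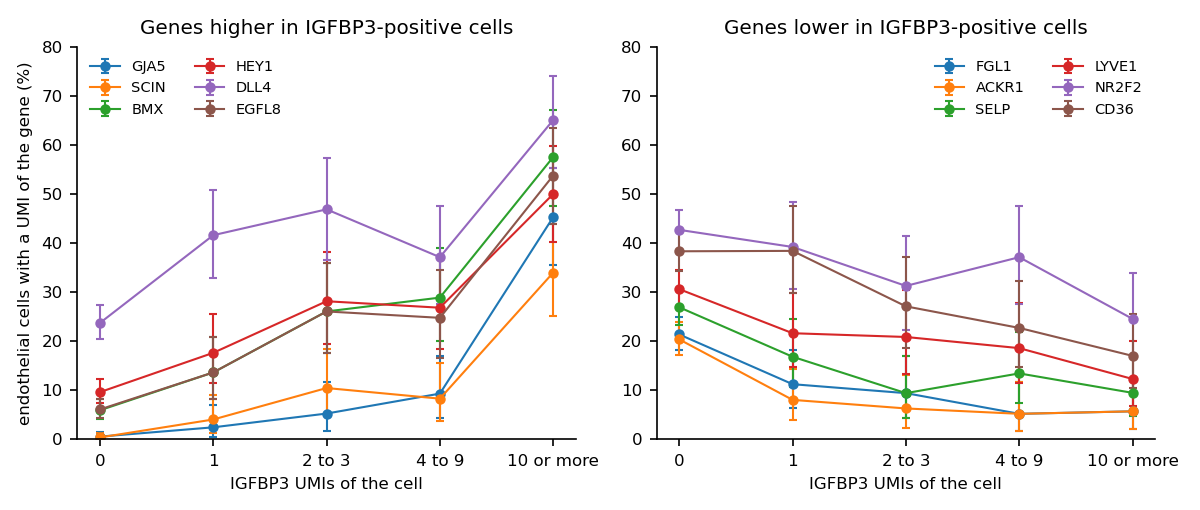
Share of endothelial cells with a UMI of a gene (%, vertical axis) by the number of IGFBP3 UMIs of the cell (horizontal axis), for 6 genes that were higher and 6 that were lower in IGFBP3-positive cells, with the cells of the 3 calves pooled. Bars are 95% exact binomial intervals. GJA5 went from 0.504% of cells with no IGFBP3 UMI to 45.3% of cells with 10 or more.

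After thinning to 2000 UMIs, GJA5 was found in 19.4% ± 12.1 of IGFBP3-positive and 0.382% ± 0.345 of IGFBP3-negative cells (SD, n = 3), against 0.0108% of epithelial cells. The thinned shares were 30.0% ± 19.1 and 1.70% ± 1.86 for BMX, and 29.8% ± 7.22 and 9.94% ± 4.65 for DLL4. Thinning left out 0, 2 and 9 positive and 4, 20 and 25 negative cells of calves 1, 2 and 3. The DLL4 shares of the positive cells, 33.3%, 34.7% and 21.5%, lay above those of the negative cells, 5.41%, 14.7% and 9.73%, without overlap.

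Most positive cells carried few arterial markers. Of the 8 markers GJA5, GJA4, SEMA3G, HEY1, EFNB2, DLL4, SOX17 and FBLN5, 3 or more were found in 113 of 299 IGFBP3-positive cells (37.8%, interval 32.3% to 43.6%) and in 46 of 595 IGFBP3-negative cells (7.73%, 5.72% to 10.2%). None was found in 39 positive cells (13.0%) and in 223 negative cells (37.5%). In calves 1, 2 and 3, the shares with 3 or more were 50%, 35.0% and 38.9% of positive and 4.88%, 6.49% and 8.98% of negative cells. The intervals pool the cells of the calves and cover counting error only. These counts were not thinned, and the median depth was 4857 UMIs in positive and 4079 in negative cells. Cells with exactly 1 IGFBP3 UMI, which entered no test, lay between the groups, with 3 or more markers in 16.0% and none in 18.4%.

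Seen from single genes, 62 of the 68 endothelial cells with a GJA5 UMI were IGFBP3-positive (91.2%, interval 81.8% to 96.7%). In calves 1, 2 and 3 this share was 75%, 95% and 90.9%. Over all calves the share was 88.5% of 61 cells with a UMI of SCIN, 68.7% of 166 with BMX, 66.7% of 159 with EGFL8 and 57.3% of 185 with HEY1. SCIN and EGFL8 are not on the arterial list, and these genes were picked for their difference with IGFBP3. It was 11.5% of 148 cells with ACKR1 and 19.6% of 260 cells with LYVE1, against 29.3% of all 1019 endothelial cells. Of the 883 cells with PLVAP, 26.95% were IGFBP3-positive.

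Epithelial cells also carried IGFBP3, so the same contrast was made in them to ask which differences were unlike those of endothelial cells. The interaction of class and IGFBP3 group was tested by edgeR with calf within class as block, over 8605 epithelial cells with at least 2 IGFBP3 UMIs and 10445 without. Of 11956 genes tested, 130 (1.09%) had a difference that itself differed between the classes, of which 90 (0.753%) were higher and 40 (0.335%) lower in endothelial than in epithelial cells. Of the 15 highest named genes of the endothelial comparison, 12 passed this test, and of the 15 lowest, 3 passed. These genes were picked for their endothelial difference, which enters this test, so the counts are a description.

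BMX, EGFL8, HEY1 and ELN were among the 12. In epithelial cells HEY1 was lower in IGFBP3-positive cells by 0.85 on the log2 scale, and its difference of differences was 2.70 ± 0.32 (adjusted p = 0.000641). ELN was also lower in IGFBP3-positive epithelial cells (-1.47, against 1.51 in the same fit of endothelial cells), with a difference of differences of 2.97 ± 0.44 (adjusted p = 0.00348). BMX had 3.81 ± 0.43 (adjusted p = 0.000525) and EGFL8 had 2.91 ± 0.38 (adjusted p = 0.00121), with few UMIs in epithelial cells, 22 in positive and 49 in negative cells for BMX, and 49 and 52 for EGFL8.

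GJA5 and DLL4 did not pass the interaction test at this depth (adjusted p = 0.100 and 0.165), where positive and negative epithelial cells held 4 and 3 UMIs of GJA5 and 11 and 16 of DLL4. IGFBP6 and FABP4 differed in the opposite direction. IGFBP6 had a difference of -0.84 in endothelial cells, which did not pass in this fit (adjusted p = 0.069), and was higher in IGFBP3-positive epithelial cells by 1.06 (difference of differences -1.89 ± 0.24, adjusted p = 0.000785). FABP4 had -2.01 in endothelial cells, which did not pass either (adjusted p = 0.180), and was higher in epithelial cells by 1.24 (-3.25 ± 0.59, adjusted p = 0.011). FGL1 was lower in endothelial cells and not called in epithelial cells (-2.51 ± 0.38, adjusted p = 0.00429). ST3GAL4 was lower by 1.03 on the log2 scale in both classes. C18H19orf33 was higher in both, by 1.48 in endothelial and 0.71 in epithelial cells, and its 2 differences were not told apart (adjusted p = 0.332).

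**Figure D5:**
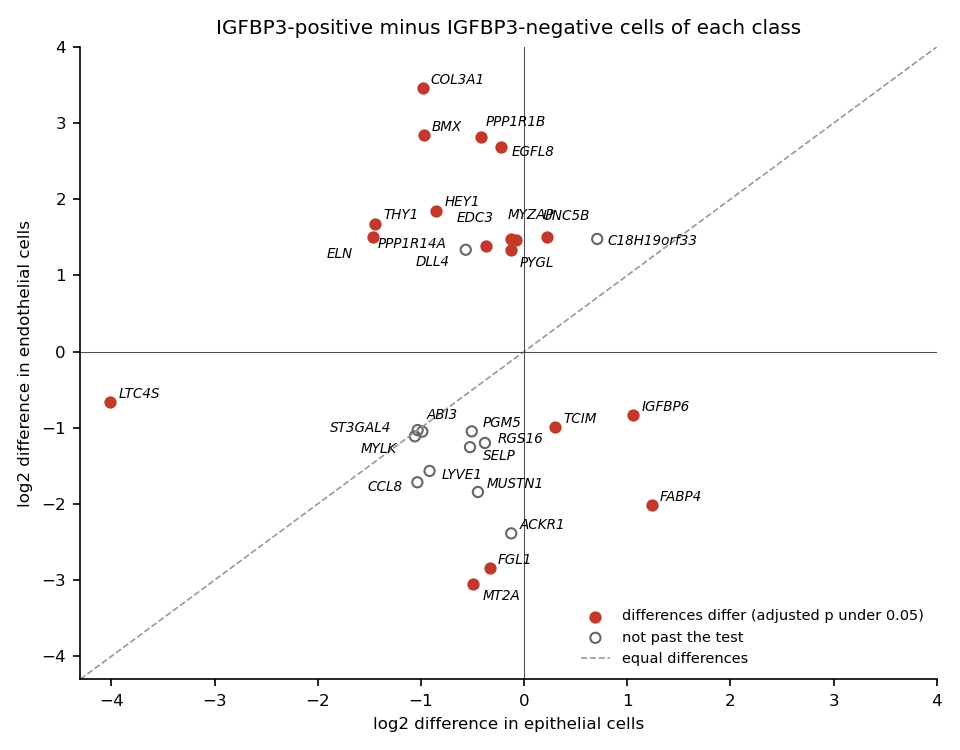
Log2 difference of IGFBP3-positive minus IGFBP3-negative cells in endothelial (vertical axis) against epithelial cells (horizontal axis) for the named genes with more than 3 UMIs in each of the 4 sums. Filled points passed the test of the difference between classes, and the dashed line marks equal differences. HEY1 and ELN lie above 0 in endothelial and below 0 in epithelial cells, and IGFBP6 and FABP4 the reverse.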

How the data were processed

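Rumen tissues of 3 newborn calves were profiled by droplet 3′ single-cell RNA-seq, 1 library per calf. Per the labels and the methods of the study, the authors deposited raw UMI counts per gene and barcode from Cell Ranger 3.1.0 on ARS-UCD1.2, without normalization. The quality limits were 500 to 4000 genes, a maximum of 50000 UMIs and a maximum mitochondrial share of 40%. No doublet caller was run, and doublets were limited by the gene maximum and the PTPRC and keratin limits. Counts were summed per calf and cell group and tested with edgeR 4.0.16 (TMM, filterByExpr, quasi-likelihood test, Benjamini-Hochberg, threshold 0.05), leaving out IGFBP3. The step was tested on simulated counts in which every gene had the same spread and every calf the same fold. Genes carried by single cells or a single calf were not simulated. DESeq2 1.42.0 and other settings served as alternatives. CPM is scaled to all UMIs of the summed cells.

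Both sums of a calf come from the same animal, so the calf was a block. The deviations from the group means of the 2 sums of a calf correlated at 0.168, 0.294 and 0.388 over 6805 genes. The members, gene lists and tests were chosen with earlier results of these data known. Named genes were, among genes past the threshold with a symbol, outside the gate, in the same direction in 3 calves and at 50 CPM or more in the higher group, the 15 highest and 15 lowest by log2 difference. To these came list members past the threshold or most abundant, the cell type markers, and the 5 largest interactions in each direction. Gene names are those of the deposited files, and no coordinates or sequences are given. The 2 sums per calf are not separate animals. The edgeR p-values rest on a spread moderated across genes, so they do not measure the spread of a single gene over 3 calves. CYP1A1 passed in edgeR (adjusted p = 1.28e-36) although calf 1 went the opposite way, and did not pass in DESeq2 (adjusted p = 0.9998). The fit weights calves by depth.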

Additional observations from a re-analysis of the deposited data

Results flagged for a closer look

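The change of 18 named genes with IGFBP3 differed between endothelial and epithelial cells by the interaction test (edgeR, adjusted p under 0.05). These genes were named for their endothelial difference, which enters this test, or for the interaction itself, so the list is a description. On the log2 scale, the endothelial minus the epithelial difference was 3.81 for BMX, 4.44 for COL3A1, 1.61 for EDC3, 2.91 for EGFL8, 2.97 for ELN, 2.70 for HEY1, 3.35 for LTC4S, 1.55 for MYZAP, 1.75 for PPP1R14A, 3.23 for PPP1R1B, 1.45 for PYGL, 3.13 for THY1 and 1.29 for UNC5B. It was -3.25 for FABP4, -2.51 for FGL1, -1.89 for IGFBP6, -2.55 for MT2A and -1.30 for TCIM. COL3A1 rested on 121 UMIs in IGFBP3-positive endothelial cells, 55 of them in 1 cell, and LTC4S on 4 UMIs in IGFBP3-positive epithelial cells. MT2A belongs to a family of near copies and is uncertain. SCIN and CCL21 also passed but had 2 UMIs in negative and 0 in positive endothelial cells, and no size is given for them.

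Endothelial barcodes with more than 4000 genes were outside the comparisons. Of 28 such barcodes, 17 held at least 2 IGFBP3 UMIs (60.7%, exact interval 40.6% to 78.5%), at a median of 19129.5 UMIs per barcode, against 29.3% of the endothelial cells within the limit at a median of 4253 UMIs. Whether these barcodes are doublets was not tested.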

How the results depend on the processing

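The count of 145 genes in the endothelial comparison moved to 21 with DESeq2 (14 higher and 7 lower, 1056 adjusted p-values NA), to 224 with depth-matched negative cells, to 45 with cells thinned to 2000 UMIs, and to 6 with no stromal excess and no keratin UMI, which left 9 and 32 positive and 23 and 53 negative cells of calves 2 and 3 in the fit. Leaving out a calf gave 24 to 282. The remaining alternatives, 2 of them (a keratin limit of 20 and the stromal limit) chosen after seeing the data, gave 136 to 199. At 1 or more IGFBP3 UMIs, 76 of 199 calls were higher, and with depth-matched cells 90 of 224, against 78 of 145. Without the calf block, which pairs the 2 sums of a calf, the count was 7 in place of 145, with 172 genes at an unadjusted p under 0.05, and the interaction count was 0 in place of 130, with 360 at an unadjusted p under 0.05 in edgeR. Without the low-count filter the interaction count was 398, and leaving out a calf gave 101 to 160. The endothelial share of 23.6% was 35.6% at 1 or more IGFBP3 UMIs, and 19.3% to 29.8% with a calf left out.

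Over 165 named genes, 2245 of 2527 alternative values kept direction and side of the threshold, 242 lost it and 36 gained it. The 4 that reversed did so in the fit with no keratin UMI: CCL2 (0.66), FN1 (-0.44), GJA4 (-0.23) and JAG2 (-0.41), none past the threshold. Of the 15 highest genes, 15 passed without calf 1, 15 without calf 2 and 6 of 12 tested without calf 3. Of the 15 lowest, 14 passed without calf 1 and 7 each without calf 2 or 3. DESeq2 kept 9 and 7, and the fit without the block 5 and 1. The causes were not tested. With 6 positive cells in calf 1, a gene under 31.6 CPM there was not detectable.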
